A study of Mus musculus with 151 samples.

Results

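The 10 genes described here are Pou5f1, Nanog, Sox2, Prdm1, Prdm14, Tfap2c, Utf1, Dppa5a, Nanos3 and Lin28a, which regulate pluripotency or the primordial germ cell (PGC), the embryonic precursor of the oocyte. They were chosen by name, and all 10 had a row in each of 7 tables of read counts that list 35976 genes and together hold 143 libraries from female mice. Natural females came from CF-1 dams mated with B6/SJL males during their natural cycle, with no embryo transfer. IVF females came from eggs of superovulated CF-1 dams that were fertilized in vitro with B6/SJL sperm, cultured to the blastocyst and transferred to pseudopregnant CF-1 recipients, so that hormone treatment, fertilization, culture and transfer cannot be told apart. Each table set IVF against Natural at a single stage. The stages were pools of 100 PGCs at E13.5 (4 Natural, 5 IVF), E18.5 ovaries (4 and 6), ovaries of 12 weeks (4 and 5) and of 39 weeks (5 and 5), single oocytes at 12 weeks (36 and 40) and 39 weeks (9 and 10), and pools of cumulus cells at 12 weeks (5 and 5). Oocytes and cumulus cells were taken after the adult females themselves had been superovulated, and the ovary libraries were made from tissue in which oocytes are a small part of the cells.

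In the mouse, the transcription factors encoded by Pou5f1 (OCT4), Nanog and Sox2 hold embryonic cells in a pluripotent state. Germ cells arise from such cells through Prdm1 (BLIMP1), Prdm14 and Tfap2c (AP2γ), which repress somatic genes and restart parts of the pluripotency program. Utf1 encodes a chromatin protein of pluripotent cells, Dppa5a a small protein with an RNA-binding KH domain, Nanos3 an RNA-binding protein that keeps PGCs alive, and Lin28a an RNA-binding protein that blocks maturation of let-7 miRNAs. Female PGCs leave this state as they enter meiosis in the fetal ovary, and the growing oocyte then stores a new set of maternal transcripts that includes Pou5f1.

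On the mm10 (GRCm38) genome, Pou5f1 lies at chr17:35506018-35510772 on the plus strand, Nanog at chr6:122707489-122714633 on plus, Sox2 at chr3:34650405-34652461 on plus, Prdm1 at chr10:44437177-44528501 on minus and Prdm14 at chr1:13113457-13127163 on minus. Tfap2c lies at chr2:172549593-172558622 on plus, Utf1 at chr7:139943789-139945112 on plus, Dppa5a at chr9:78367052-78368177 on minus, Nanos3 at chr8:84173731-84185217 on minus and Lin28a at chr4:134003330-134018841 on minus. Sox2 lies inside the transcript unit Sox2ot on the same strand, and Nanos3 overlaps Mir181c and Mir181d on its own strand. Dppa5a has near-identical copies and Nanog has processed pseudogenes, so their read counts are less certain than those of the other members.

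The bases before the start site are shown for the 5 members with a usable promoter entry, so that members still abundant in the oocyte (Pou5f1, Lin28a) can be read beside members almost lost there (Nanog, Sox2, Utf1). The sequences are from RefSeq (GRCm38.p6), written 5′ to 3′ on the gene's strand up to the base before the start given above, except for Sox2, where 410 bases lie between the end of the RefSeq window and that start. Capitals mark matches on either strand to 4 short motifs, the octamer core ATGCAAA, the Sox core CATTGT, the GC box GGGCGG and the nuclear receptor half-site AGGTCA. Pou5f1 is chr17:35505782-35506017 (plus), Nanog chr6:122707239-122707488 (plus), Sox2 chr3:34649745-34649994 (plus), Utf1 chr7:139943606-139943788 (plus) and Lin28a chr4:134018842-134019066 (minus).
Pou5f1: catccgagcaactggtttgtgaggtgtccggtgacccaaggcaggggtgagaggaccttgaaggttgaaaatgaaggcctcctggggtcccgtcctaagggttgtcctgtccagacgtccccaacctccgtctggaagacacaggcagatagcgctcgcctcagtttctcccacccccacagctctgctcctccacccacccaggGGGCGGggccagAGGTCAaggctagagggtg
Lin28a: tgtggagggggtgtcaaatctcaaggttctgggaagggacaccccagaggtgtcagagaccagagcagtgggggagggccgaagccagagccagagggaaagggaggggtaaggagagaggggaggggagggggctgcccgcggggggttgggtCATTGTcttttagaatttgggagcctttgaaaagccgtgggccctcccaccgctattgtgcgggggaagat
Nanog: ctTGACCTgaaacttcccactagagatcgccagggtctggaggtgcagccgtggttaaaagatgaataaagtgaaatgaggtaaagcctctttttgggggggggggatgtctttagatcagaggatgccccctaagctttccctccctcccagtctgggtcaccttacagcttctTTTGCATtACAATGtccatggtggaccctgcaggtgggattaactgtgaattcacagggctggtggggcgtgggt
Sox2: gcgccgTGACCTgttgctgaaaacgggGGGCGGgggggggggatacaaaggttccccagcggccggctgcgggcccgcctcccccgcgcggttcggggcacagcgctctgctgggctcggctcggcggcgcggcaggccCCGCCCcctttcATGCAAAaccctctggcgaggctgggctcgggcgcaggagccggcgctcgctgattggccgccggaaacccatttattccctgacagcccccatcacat
Utf1: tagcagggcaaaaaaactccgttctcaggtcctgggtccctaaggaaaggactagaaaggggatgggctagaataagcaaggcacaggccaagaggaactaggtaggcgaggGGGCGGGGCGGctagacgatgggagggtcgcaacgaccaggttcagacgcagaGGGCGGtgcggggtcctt

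The Nanog window held an octamer core and a Sox core 1 base apart and a nuclear receptor half-site near its 5′ end, and the Sox2 window held an octamer core, 2 GC boxes and a half-site near its 5′ end. The Utf1 window held 3 GC boxes, of which the first and the second overlap at 1 base. The Pou5f1 window held a GC box and a nuclear receptor half-site, and the Lin28a window held a Sox core. Among 32851 mouse promoter windows of 250 bases, 4.12% held the octamer core, 10.7% the Sox core, 32.7% the GC box and 14.0% the half-site, so these matches are a description of the letters only. Usable entries were found for 5 of the 10 members; Prdm1, Prdm14, Tfap2c, Dppa5a and Nanos3 are not shown.

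Total counts ran from 4364495 to 8675189 in the PGC pools, 839781 to 10879166 in 12-week oocytes, 2820748 to 31126357 in 39-week oocytes, 2532824 to 6345249 in cumulus pools, 6995713 to 14830788 in E18.5 ovaries and 2839022 to 43363799 in adult ovaries. Levels are given as counts per 1000000 counts of the library (CPM). Differences are log2 fold changes from edgeR's quasi-likelihood test with TMM scaling, fitted across all genes, with Benjamini-Hochberg adjusted p, and are IVF over Natural unless another contrast is named. A member is said to have risen or fallen only where its adjusted p was below 0.05. The PGC pools held 4817 to 11793 CPM of 8 germ cell markers and at most 27.0 CPM of 15 growing oocyte markers, and Y-linked genes reached at most 0.118 CPM. They also held 114 to 427 CPM of 8 endothelial markers. The growing oocyte markers summed to far less in 10 of the 76 oocytes at 12 weeks than in the rest. The same held for 2 of the 19 oocytes at 39 weeks. Some of the results that involve these oocytes are also given without them. The cumulus library labelled Natural replicate 5 carries a library name whose leading part the oocyte labels place in the IVF group.

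**Figure D1:**
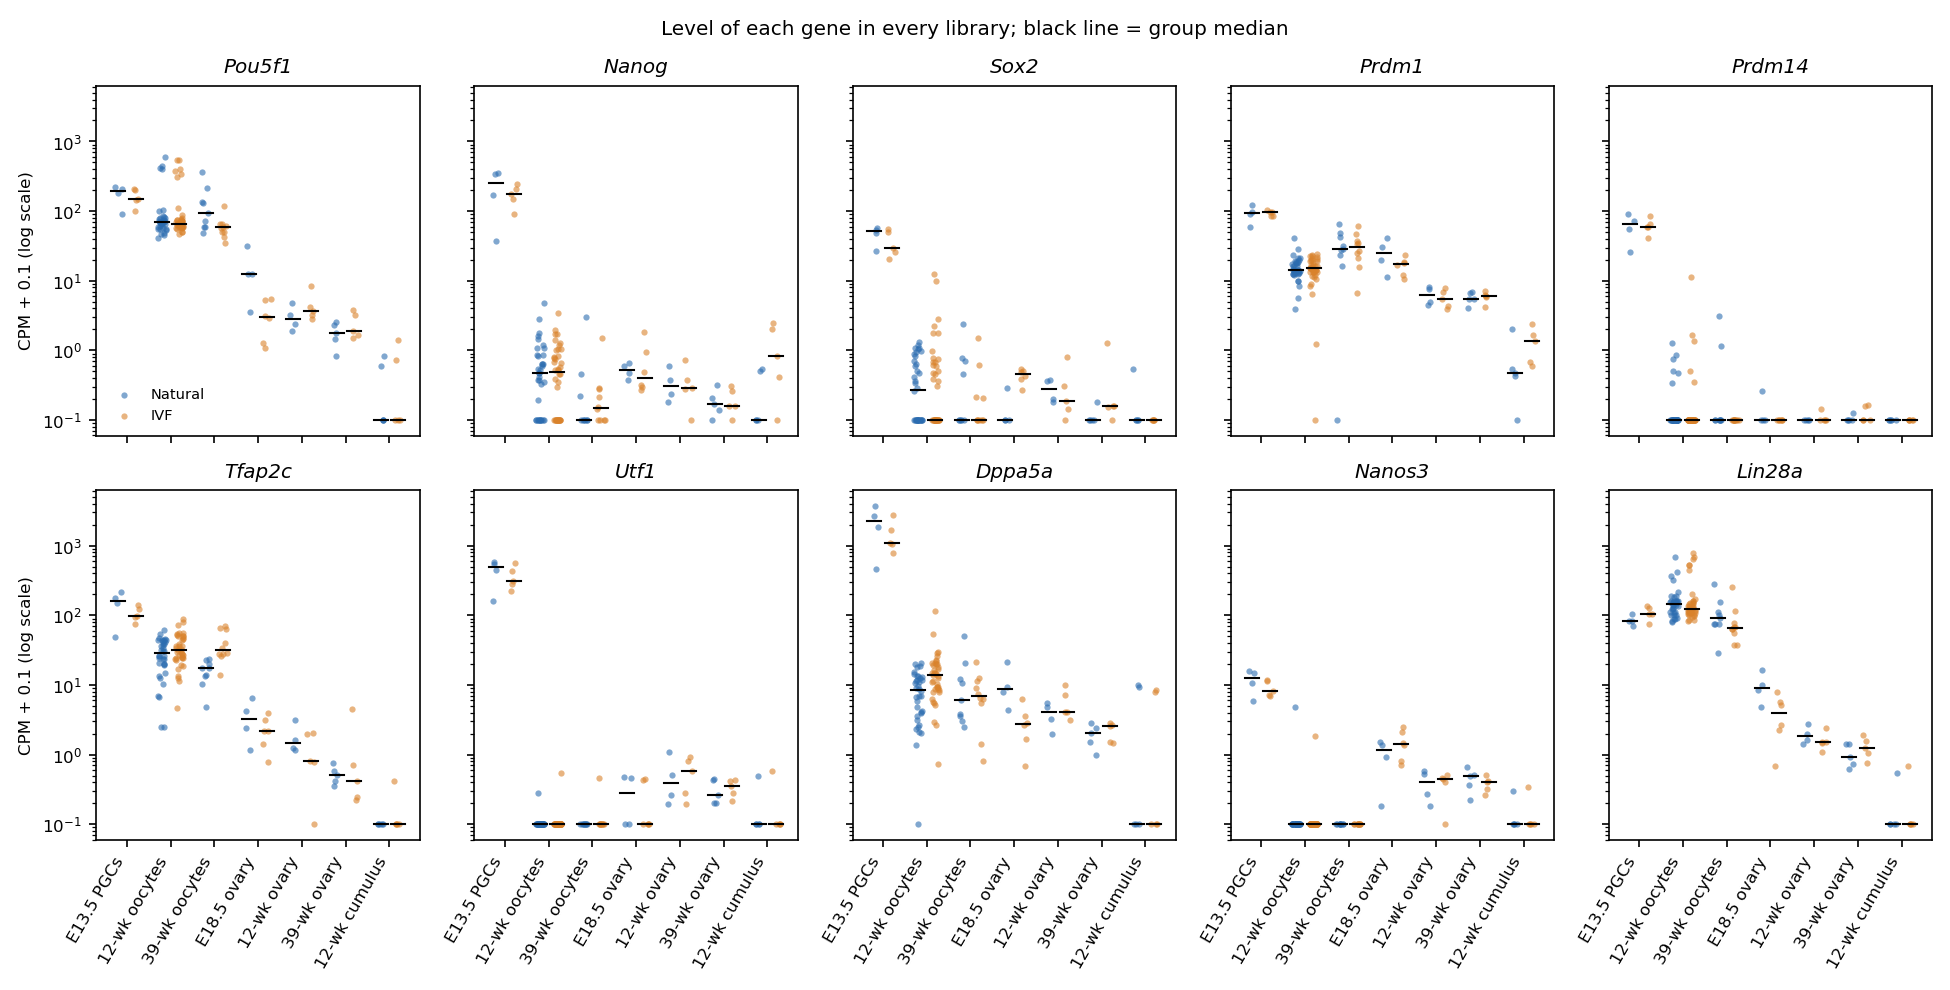
CPM of the 10 members (log axis of CPM + 0.1) in all 143 libraries by stage, with 1 point a library, Natural in blue, IVF in orange and a black line at the group median. Most members are highest in the E13.5 PGC pools, while the Pou5f1 levels of PGC pools and single oocytes overlap, and the mean of Lin28a is highest in 12-week IVF oocytes.

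Across the 14 groups of the study, the PGC pools held the highest mean level of every member but Lin28a. For Nanog, Sox2, Prdm14, Utf1, Dppa5a and Nanos3, every PGC pool was above every library of the other tissues. Pou5f1, Prdm1 and Tfap2c overlapped with oocytes, Tfap2c through PGC pools as low as 48.7 CPM and oocytes as high as 88.5 CPM. Lin28a was highest in 12-week IVF oocytes (mean 195 CPM), followed by 12-week Natural oocytes (170 CPM), 39-week Natural oocytes (110 CPM) and IVF PGCs (109 CPM), and each of these neighbors overlapped with the next. The first gap in the order of Pou5f1 lay between 39-week IVF oocytes (lowest library 35.1 CPM) and Natural E18.5 ovaries (highest 31.4 CPM), and the first gap of Lin28a lay at the same place (37.6 against 16.5 CPM). The lowest levels of Pou5f1 were in the cumulus pools, with at most 1.30 CPM.

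Per kilobase of exon, which allows genes to be compared within a library, Dppa5a led in Natural PGCs with a mean of 3509 CPM per kilobase. It was followed by Utf1 (351), Nanog (101), Pou5f1 (78.4), Tfap2c (40.1), Prdm14 (23.8), Sox2 (22.6), Lin28a (21.2), Prdm1 (16.5) and Nanos3 (12.5 CPM per kilobase). The leading 5 members kept this order in IVF PGCs, from 2393 CPM per kilobase for Dppa5a to 28.8 for Tfap2c. In Natural 12-week oocytes the order was different: Pou5f1 led with 49.5 CPM per kilobase, before Lin28a (42.5), Dppa5a (14.0), Tfap2c (7.89) and Prdm1 (2.80), and the other members had less than 0.3. At 39 weeks Pou5f1 and Lin28a again led in both groups, with 58.4 and 27.5 CPM per kilobase in Natural oocytes and 26.7 and 20.9 in IVF oocytes.

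At E13.5, no member rose or fell in IVF PGCs, where edgeR called 0% of 12763 genes tested. At an unadjusted p below 0.05 there were 349 genes, none of them members, and DESeq2 called 0. Among the core factors, Pou5f1 was at 184, 91.1, 221 and 209 CPM in the 4 Natural pools and at 204, 99.3, 148, 204 and 143 CPM in the 5 IVF pools (log2 fold change -0.18, SE 0.38, adjusted p 1.00). Nanog was at 169, 37.7, 353 and 343 CPM in Natural and at 206, 90.4, 173, 241 and 148 CPM in IVF pools (-0.43, 95% interval -1.64 to 0.78, adjusted p 1.00). The groups overlapped for both genes, and the second pool of each group was the lowest. Sox2 did not share this order, with 27.0, 57.5, 48.1 and 53.6 CPM in Natural and 20.5, 50.0, 54.4, 25.4 and 29.8 CPM in IVF pools (-0.40, -0.96 to 0.17, adjusted p 1.00).

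The 3 specification factors also overlapped between the groups. Prdm1 was at 91.4, 59.9, 96.3 and 122 CPM in Natural and 97.6, 84.6, 98.2, 85.8 and 104 CPM in IVF pools. Prdm14 was at 55.5, 26.1, 73.1 and 89.4 CPM against 84.8, 41.1, 64.3, 58.5 and 58.2 CPM. For both genes the log2 fold change was -0.04. Tfap2c was at 149, 48.7, 177 and 216 CPM in Natural and 123, 74.3, 97.4, 140 and 94.2 CPM in IVF pools (-0.53, SE 0.42, -1.45 to 0.39, adjusted p 1.00).

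Dppa5a was the most abundant and among the most variable members. It was at 1884, 461, 3698 and 2644 CPM in Natural pools (mean 2172 ± 1362, SD, n = 4) and at 1661, 790, 1086, 2798 and 1072 CPM in IVF pools (1481 ± 801, n = 5). Its log2 fold change of -0.57 (SE 0.62) had an interval of -1.92 to 0.78 and an adjusted p of 1.00. The interval spans both a large fall and a moderate rise, so a change of this size was not detectable with these pools. Utf1 was at 444, 162, 576 and 540 CPM against 435, 223, 310, 563 and 282 CPM (-0.28, -1.29 to 0.73, adjusted p 1.00), with the second pool again the lowest in each group. Nanos3 was low throughout, at 5.70, 10.5, 14.6 and 15.6 CPM in Natural and 6.87, 8.15, 11.6, 11.4 and 7.10 CPM in IVF pools. Lin28a was the only member with a higher fitted level in IVF, with 82.5, 104, 82.1 and 70.8 CPM in Natural and 75.1, 103, 105, 126 and 135 CPM in IVF pools, and its interval included 0 (0.33, SE 0.22, -0.14 to 0.80, adjusted p 1.00).

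The pools of a group differed more than the groups did. The second Natural pool and the second IVF pool were the lowest of their group for 7 members, namely Pou5f1, Nanog, Prdm1, Prdm14, Tfap2c, Utf1 and Dppa5a. In the second Natural pool, 16 of 20 genes on a list of meiotic entry and oocyte differentiation were the highest of the group and 0 the lowest. In the second IVF pool 8 of 20 were the highest and 3 the lowest, so the list as a whole set this pool apart less. This set of 20 genes, which includes Dazl and Ddx4, differs in size from the list of the same name used further on. Stra8, the retinoic acid target that starts meiosis, was at 23.6, 792, 0 and 2.29 CPM in the Natural pools and at 87.8, 204, 112, 46.9 and 176 CPM in the IVF pools. Rec8, a meiotic cohesin, was at 67.1, 415, 10.3 and 19.9 CPM against 90.8, 212, 118, 58.9 and 187 CPM. The Natural pool highest for both genes was the pool lowest for these 7 members, and the second IVF pool was likewise the highest of its group for both. The sum of the 8 germ cell markers was also lowest of its group in these pools (4817 and 5553 CPM), and the part of either measure in the spread was not tested. These meiotic genes were singled out after their values were seen, and no test was made on them.

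**Figure D2:**
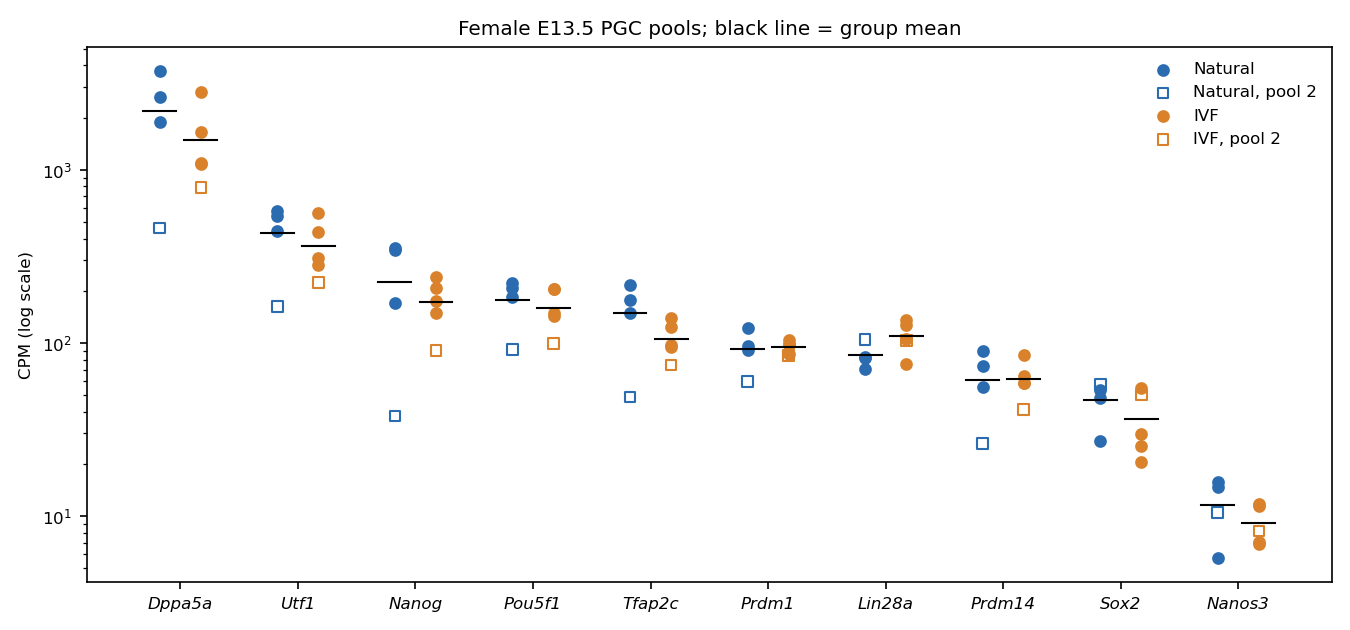
CPM of each member in the 4 Natural and 5 IVF pools of E13.5 PGCs (log axis), 1 point a pool, with a black line at the group mean and open squares for the second pool of each group. The groups overlap for all 10 members, and the second pool of each group is the lowest for 7 of them.

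From the PGC to the 12-week oocyte, Nanog, Sox2, Prdm14, Utf1 and Nanos3 were almost lost in both groups. Dppa5a fell steeply but was still detected in nearly all oocytes, Prdm1 fell moderately, Tfap2c was not called, and Lin28a rose. Oocytes were summed within donor sets read from the library names (5 Natural, 5 IVF), and the sets were fitted together with the PGC pools. The labels do not call these names donors. Some sets of a group share a leading number, such as sets 35_1 and 35_3 in Natural and sets 126_2 and 126_3 in IVF. What a shared number stands for is not given, and the sets were treated as separate samples. In this fit 8 members were called in Natural (1 higher, 7 lower) and 9 in IVF (2 higher, 7 lower). The background was wide: 76.1% of 17368 genes were called in Natural (38.9% higher, 37.2% lower) and 76.1% in IVF (40.8% higher, 35.3% lower). Stage and table cannot be told apart, since each stage was counted in its own table, and 1 PGC library holds 100 cells while 1 oocyte library holds a single cell.

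Utf1 showed the largest drop, from 9468 counts in the 4 Natural PGC pools to 2 counts in 36 Natural oocytes, and from 13538 counts in the IVF pools to 4 counts in 40 IVF oocytes. It was detected in 1 oocyte of each group. The pooled CPM was 42031 times higher in Natural PGCs, with a counting interval of 11632 to 347117, and 19247 times higher in IVF PGCs, with an interval of 7516 to 70651. Nanos3 went from 270 to 4 counts in Natural, a ratio of 599 (231 to 2215), and from 338 to 3 in IVF, a ratio of 641 (217 to 3122). All of these oocyte counts of Nanos3 were in oocytes of low marker level, 1 in each group. Prdm14 went from 1333 to 19 counts in Natural (623, 397 to 1038) and from 2329 to 23 counts in IVF (576, 383 to 910). Fitted log2 fold changes for these 3 genes were between -13.24 and -7.11 and depend on the prior count; their adjusted p were at most 1.03e-06.

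Nanog fell by 7.12 on the log2 scale in Natural (adjusted p 7.26e-10) and fell by 6.71 in IVF (9.58e-10). Reads of Nanog were found in 25 of 36 Natural and 25 of 40 IVF oocytes, at medians of 0.373 and 0.389 CPM. Sox2 fell by 5.19 in Natural (adjusted p 5.25e-09) and fell by 4.10 in IVF (5.35e-08), and was found in 19 oocytes of each group. These levels are close to the depth limit of a single oocyte library. Dppa5a fell by 6.23 in Natural (SE 0.68, adjusted p 4.81e-08) and fell by 4.99 in IVF (SE 0.64, 3.98e-07), yet it was detected in 35 of 36 Natural and 40 of 40 IVF oocytes. Prdm1 fell by 0.81 (SE 0.25, adjusted p 0.0057) and 0.83 (SE 0.24, 0.00323).

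Lin28a rose in both groups, with a log2 fold change of 2.66 in Natural (SE 0.28, adjusted p 3.16e-08) and 2.28 in IVF (SE 0.26, 6.12e-08). Pou5f1 missed the threshold in Natural (0.77, SE 0.35, adjusted p 0.0542) and passed it in IVF (0.87, SE 0.33, adjusted p 0.0216). With RLE size factors (0.71, adjusted p 0.0604) and in DESeq2 (0.71, adjusted p 0.0720) the IVF call was lost, which left 8 members called. Without filtering on low counts, Natural passed as well (0.79, adjusted p 0.0477). Without the 10 oocytes of low marker level, Pou5f1 passed in neither group (0.37, adjusted p 0.260 in Natural; 0.44, adjusted p 0.151 in IVF). The IVF call of Pou5f1 was also lost without the second, the third or the fifth PGC pool or the third donor set, and Natural passed without the third PGC pool or the first or the third set, with log2 fold changes of 0.49 to 0.91 in Natural and 0.69 to 1.05 in IVF over all samples left out. Tfap2c was at -0.51 in Natural (adjusted p 0.206) and 0.23 in IVF (0.559), and passed in Natural only without the second PGC pool (log2 fold change -0.84, adjusted p 0.0106).

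The direction of Pou5f1 rests on the scaling, and the cause of this was not tested. Scaled by library size alone, the median of all genes moved to -1.96 in Natural and -1.67 in IVF, from -0.09 and 0.06, and Pou5f1 was then lower in oocytes (-0.98, adjusted p 0.0093, and -0.76, adjusted p 0.0283). In that scaling Tfap2c was also lower, at -2.26 and -1.48, and Lin28a remained higher, at 0.84 (adjusted p 0.0147) and 0.62 (0.0481). The mean CPM of Pou5f1, which uses library size alone, was 176 in Natural PGCs and 111 in Natural oocytes. Of the called genes, 51.2% in Natural and 53.6% in IVF were higher in oocytes with TMM scaling, and 27.7% and 30.2% with library size alone.

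No member was called for a difference between IVF and Natural in the change from PGC to oocyte, and edgeR called this interaction for 0% of 17368 genes. The lowest adjusted p among members was 0.759, for Sox2. At an unadjusted p below 0.05 there were 1247 genes, and DESeq2 called 43. The interaction for Dppa5a was 1.24 on the log2 scale, with an interval of -0.40 to 2.88, which spans no difference and a large one.

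Other genes of these programs changed in both directions between PGC and oocyte. Of a list of 26 pluripotency genes that holds none of the members, 24 were tested and 6 were higher and 14 lower in oocytes, in Natural and in IVF alike. Their median log2 fold change was -1.97 in Natural and -1.34 in IVF. Tcl1, a coactivator of the kinase Akt, rose from a mean of 182 to 9711 CPM in Natural (log2 fold change 7.51) and from 147 to 9676 CPM in IVF (7.78). Dppa4, a chromatin factor of pluripotent cells, fell from 264 to 0.134 CPM in Natural and from 272 to 1.76 CPM in IVF. Gdf3, a TGF-β family ligand, fell from 60.3 to 0.265 CPM and from 47.7 to 0.0317 CPM.

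Of 30 genes of PGC specification and maintenance, 29 were tested; 9 were higher and 17 lower in Natural oocytes, and 9 and 16 in IVF oocytes. Nanos2, a relative of Nanos3 known for its role in male germ cells, had 0 counts in the Natural pools and a mean of 0.163 CPM in the IVF pools, and stood at 72.0 and 81.1 CPM in oocytes. The homeobox genes Rhox6 and Rhox9 were at means of 1460 and 1981 CPM in Natural PGCs and had 0 counts in Natural oocytes. Of 22 genes of meiotic entry and oocyte differentiation, 19 were tested; 5 were higher and 9 lower in Natural oocytes, and 5 and 11 in IVF oocytes. Lhx8, a transcription factor of the oocyte, rose from 0.124 to 31.3 CPM in Natural and from 0.496 to 36.6 CPM in IVF, and Rec8 fell from 128 to 0.0992 CPM in Natural and from 133 to 0.0516 CPM in IVF.

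**Figure D3:**
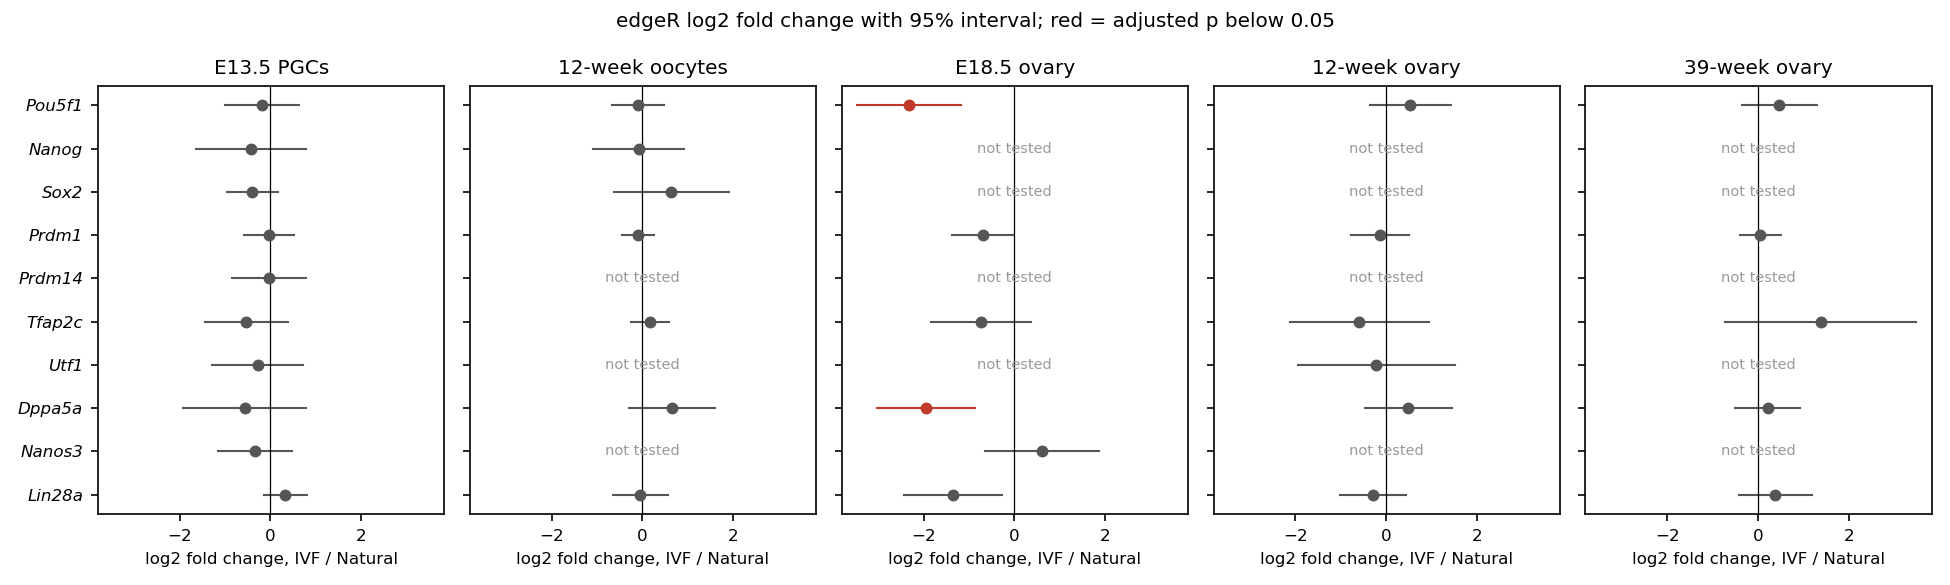
Log2 fold change of IVF over Natural for each tested member in each table, with 95% intervals from edgeR's quasi-likelihood fits. Pou5f1 and Dppa5a in E18.5 ovaries, drawn in red, are the only members called; cumulus cells and 39-week oocytes gave no test.

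At 12 weeks, no member was called between IVF and Natural oocytes over donor sets; 7 members were tested, and 0.0277% of 14444 genes were called. Pou5f1 was at 59.3, 147, 72.0, 76.0 and 92.9 CPM in the 5 Natural sets and at 69.8, 70.8, 167, 98.9 and 63.6 CPM in the 5 IVF sets (log2 fold change -0.09, interval -0.66 to 0.49). Lin28a was at 157, 204, 174, 104 and 124 CPM in Natural and at 125, 100.1, 335, 153 and 122 CPM in IVF sets (-0.05, -0.65 to 0.56). The groups overlapped for both genes, and the third IVF set was highest for both. That set holds 4 oocytes of low marker level among its 8; without them its values were 61.9 CPM for Pou5f1 and 161 CPM for Lin28a.

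Dppa5a had the largest fitted difference, at 9.92, 13.5, 3.62, 12.1 and 3.10 CPM in Natural sets and 8.68, 14.1, 8.55, 20.5 and 20.4 CPM in IVF sets (0.65, SE 0.44, -0.29 to 1.60, adjusted p 0.845). The groups overlapped. Tfap2c was at 23.2, 30.1, 30.0, 45.2 and 25.9 CPM against 43.4, 46.3, 33.0, 38.6 and 28.0 CPM (0.17, -0.26 to 0.60). Prdm1 was at 12.7 to 17.6 CPM in Natural sets and 12.4 to 17.6 CPM in IVF sets (-0.10, -0.46 to 0.27), the narrowest range of the members in oocytes. Nanog (-0.08) and Sox2 (0.64, -0.62 to 1.90) were tested at under 1.2 CPM in every set, and Prdm14, Utf1 and Nanos3 did not pass the filter on low counts. Without its oocytes of low marker level, the fourth IVF set went from 1.12 to 0.272 CPM of Sox2. Over all genes, 963 had an unadjusted p below 0.05 and DESeq2 called 54, none of them members.

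Between single oocytes of the same age, Pou5f1 and Lin28a varied more than they did between IVF and Natural. Pou5f1 ran from 41.1 over a median of 68.8 to 592 CPM in 36 Natural oocytes and from 47.3 over 66.0 to 540 CPM in 40 IVF oocytes. Lin28a ran from 81.4 over 145 to 677 CPM in Natural and from 83.3 over 124 to 783 CPM in IVF oocytes. Tfap2c ran from 2.38 over 28.3 to 60.6 CPM in Natural and from 4.60 over 31.2 to 88.5 CPM in IVF. The high end of Pou5f1 and Lin28a was made up of the oocytes of low marker level in both groups.

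These 10 oocytes (4 Natural, 6 IVF, from 5 of 10 sets) had marker sums of 3799 to 11196 CPM, against 31337 to 63472 CPM in the other 66. The limit of 20000 CPM between them was set after the values were seen. Pou5f1 ran from 304 to 592 CPM (median 414) in the 10 and from 41.1 to 110 CPM (median 66.0) in the 66, with no overlap. Lin28a likewise did not overlap, with 324 to 783 CPM (median 522) against 81.4 to 213 CPM (median 125). Tfap2c was lower, with a median of 10.7 CPM (2.38 to 26.8) against 32.9 CPM (6.96 to 88.5), and its ranges overlapped. Prdm1 had medians of 10.8 and 15.2 CPM, and Dppa5a of 8.04 and 11.1 CPM.

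Gdf9, H1foo and Bmp15 are among the growing oocyte markers whose sum set these 10 oocytes apart, so low values of Gdf9 and H1foo restate that choice. Gdf9, an oocyte growth factor, was at 109 to 629 CPM against 11063 to 25813 CPM. H1foo, the oocyte linker histone, was at 74.1 to 287 CPM against 11887 to 21929 CPM. In the other 66 oocytes, Gdf9 and H1foo had the largest medians of the markers (17629 and 17504 CPM), so they weigh most in the sum. The 10 oocytes held more of Bmp15, a growth factor partner of Gdf9, at the median (6318 against 3760 CPM). They also held more of Oog1 (1895 against 1129 CPM) and Zp2 (130 against 86.0 CPM), while the medians of the remaining markers were lower. The 10 oocytes held about the same of Tcl1 (9966 against 9664 CPM), which is not 1 of the markers. Their total counts had a median of 1962426, against 5872339 in the others. The part of depth or of the state of these oocytes in the levels of Pou5f1 and Lin28a was not tested.

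**Figure D4:**
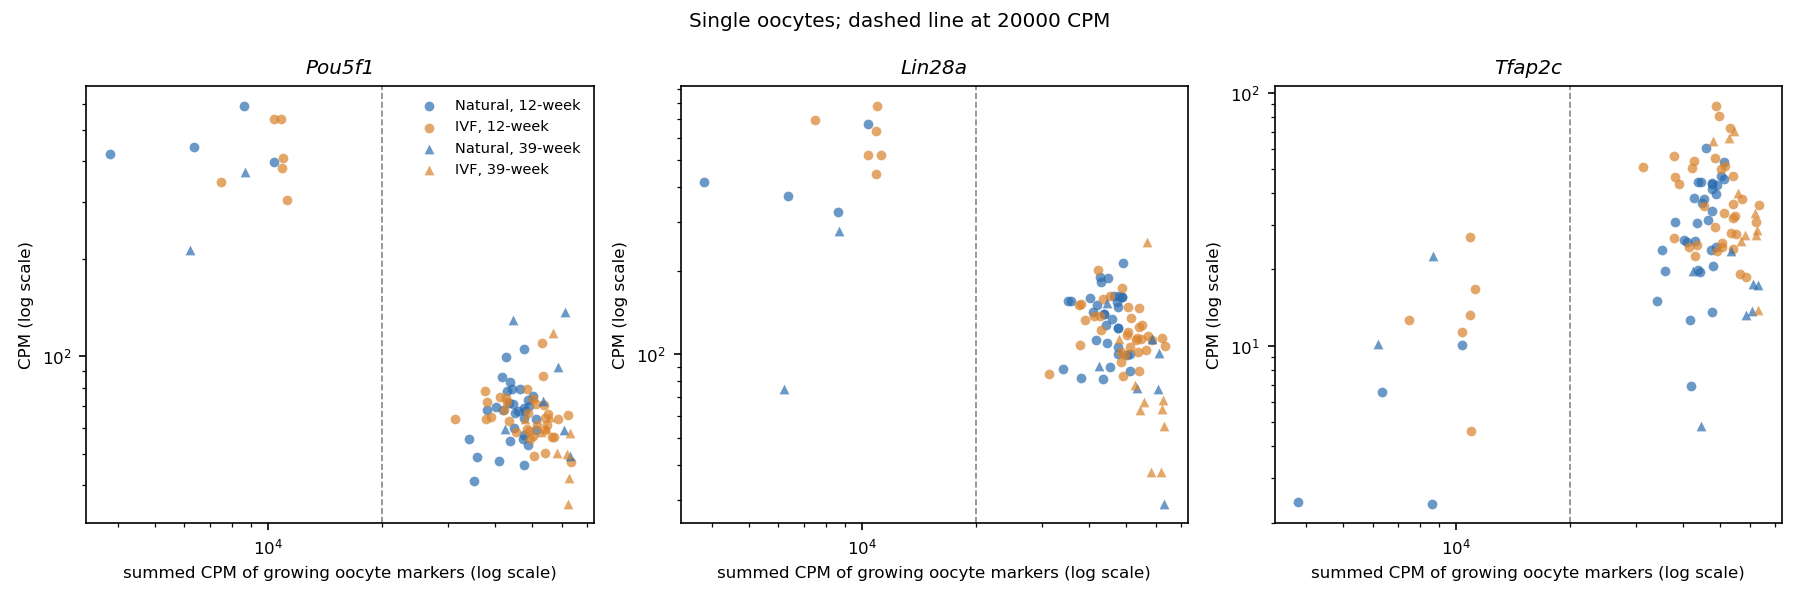
CPM of Pou5f1, Lin28a and Tfap2c in single oocytes against the summed CPM of the 15 growing oocyte markers (log axes), 1 point an oocyte, by group (color) and age (shape), with a dashed line at 20000 CPM. Among the 12-week oocytes, the 10 below 20000 CPM of markers are the 10 highest for Pou5f1 and for Lin28a.

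At 39 weeks the library names give no donor set, so each group was 1 sample and no test was made. Ratios of pooled CPM are given with exact intervals that cover counting error only. Of the 5 members at or above 1 CPM in either group, 2 were past 2-fold, where 30.1% of 12319 genes were. Pou5f1 ran from 49.2 over a median of 92.9 to 369 CPM in 9 Natural oocytes and from 35.1 over 58.1 to 118 CPM in 10 IVF oocytes, a pooled ratio of 0.354 (0.346 to 0.363). Tfap2c went the other way, from 4.80 over 17.4 to 23.7 CPM in Natural and from 13.9 over 31.2 to 70.4 CPM in IVF, a ratio of 2.71 (2.57 to 2.85). The ranges of the single oocytes overlapped for both genes.

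Both oocytes of low marker level at this age were Natural, and they held 213 and 369 CPM of Pou5f1, against 35.1 to 137 CPM in the other 17. Without them the ratio of Pou5f1 was 0.581 (0.563 to 0.599) and that of Tfap2c 2.86 (2.69 to 3.05), so that 1 member was past 2-fold, where 19.4% of 11904 genes were. The ratio of the median oocytes was 0.626 for Pou5f1 over all oocytes and 0.798 without the low ones, and 1.79 for Tfap2c either way. Lin28a ran from 29.0 over 90.5 to 278 CPM in Natural and from 37.6 over 65.5 to 253 CPM in IVF, a pooled ratio of 0.540 and of 0.697 without the low oocytes. Dppa5a had a pooled ratio of 0.655 (0.610 to 0.703) that turned to 1.34 without them, and Prdm1 was at 1.08 and 0.943. Nanog (26 and 17 counts in all Natural and all IVF oocytes), Sox2 (30 and 18), Prdm14 (36 and 0), Utf1 (0 and 1) and Nanos3 (0 and 0) were at or near the limit of detection.

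In the ovary at E18.5, 2 members fell in IVF, and these were the only members called in any IVF against Natural comparison. In bulk tissue, fewer cells of a type and less RNA per cell cannot be told apart. Of the 6 members tested, 2 were called, both lower, where 5.43% of 16415 genes were called in either direction and 2.75% lower. The labels and the account of the mouse model name the same day of collection for both groups, while a passage of the methods on cesarean sections gives a later day for IVF than for Natural pregnancies; the part of age at collection was not tested.

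Pou5f1 was at 12.5, 12.4, 3.50 and 31.4 CPM in the 4 Natural ovaries and at 5.30, 0.988, 3.00, 1.19, 5.15 and 2.84 CPM in the 6 IVF ovaries. The groups overlapped only through the third Natural ovary. The log2 fold change was -2.32 (SE 0.53, interval -3.46 to -1.18), a 4.99-fold lower level, with an adjusted p of 0.0264. Dppa5a was at 7.71, 9.35, 4.33 and 21.4 CPM in Natural and at 2.56, 0.593, 2.75, 1.59, 3.43 and 6.23 CPM in IVF ovaries. It overlapped through the same ovary, and was 3.86-fold lower (-1.95, SE 0.50, -3.03 to -0.86, adjusted p 0.0411).

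Lin28a was at 9.74, 8.33, 4.69 and 16.5 CPM in Natural and at 5.64, 0.593, 5.00, 2.59, 7.86 and 2.19 CPM in IVF ovaries. Its difference of -1.35 (SE 0.50, -2.42 to -0.28) did not pass the threshold in edgeR (adjusted p 0.121) and passed it in DESeq2 (adjusted p 0.0471), where 5.54% of 17590 genes were lower. DESeq2 called Pou5f1 and Dppa5a too, with adjusted p of 0.00723 and 0.00216.

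Both calls rested on few ovaries. When each ovary was left out in turn, the call of Pou5f1 remained in 5 of 10 refits (log2 fold change -2.64 to -1.66, adjusted p 0.0201 to 0.0897) and was lost without the second or the fourth Natural or the second, the fourth or the sixth IVF ovary. The call of Dppa5a remained in 3 of 10 refits (-2.33 to -1.37, adjusted p 0.0308 to 0.147), those without the first or the third Natural or the sixth IVF ovary.

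The specification factors and Nanos3 did not pass. Prdm1 was at 19.9, 30.7, 41.6 and 11.4 CPM in Natural and at 23.5, 16.8, 10.6, 18.4, 18.2 and 11.8 CPM in IVF ovaries (-0.70, adjusted p 0.198). Prdm1 and Tfap2c were highest in the third Natural ovary, in which Pou5f1, Dppa5a and Lin28a were the lowest of the group. That ovary also held the most of 12 oviduct and epithelium markers among Natural ovaries (974 CPM, against 333 to 668 CPM). Among IVF ovaries, the third held the most of these markers (593 CPM) and the least Prdm1. The part of these markers' tissue was not tested. Tfap2c was at 2.27, 4.12, 6.35 and 1.08 CPM against 2.99, 0.692, 2.08, 2.09, 3.86 and 1.31 CPM (-0.73, adjusted p 0.406), and Nanos3 was at 0.61 (adjusted p 0.557). Nanog reached at most 1.72 CPM, Sox2 0.437, Utf1 0.374 and Prdm14 0.162 CPM, and none of the 4 passed the filter on low counts.

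The 2 kinds of germ line marker gave unlike contrasts between the groups. The 15 growing oocyte markers summed to 396, 434, 193 and 853 CPM in Natural and 176, 9.69, 151, 25.4, 185 and 145 CPM in IVF ovaries, with no overlap, and 7 of 11 tested fell (median log2 fold change -2.55, against 0.00 over all genes). The 8 germ cell markers summed to 412, 568, 199 and 697 CPM in Natural and 542, 263, 483, 269, 529 and 547 CPM in IVF, and 0 of 6 tested were called. Within Natural, the third ovary was the lowest and the fourth the highest for both sums. Within IVF, the second ovary was the lowest for both sums and the fourth was next. Markers of red blood cells were at 584 to 1596 CPM in Natural and 1640 to 4598 CPM in IVF ovaries, and 2 of 6 tested rose. The part of these cell types in the fall of Pou5f1 and Dppa5a was not tested.

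Ratios of the members to both marker sums were computed per ovary after the values were seen and are given as a description with no test. Per 1000 CPM of germ cell markers, Pou5f1 was at 17.5 to 45.1 CPM in Natural and 3.76 to 9.78 CPM in IVF ovaries. Dppa5a was at 16.5 to 30.8 against 2.26 to 11.4 CPM, and Lin28a at 14.7 to 23.7 against 2.26 to 14.9 CPM. Per 1000 CPM of growing oocyte markers, Pou5f1 was at 18.1 to 36.8 CPM in Natural and 19.6 to 102 CPM in IVF ovaries, Dppa5a at 19.5 to 25.1 against 14.5 to 62.7 CPM and Lin28a at 19.2 to 24.6 against 15.1 to 102 CPM. The groups overlapped on the second scale for all 3 genes, and on the first for Lin28a alone.

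**Figure D5:**
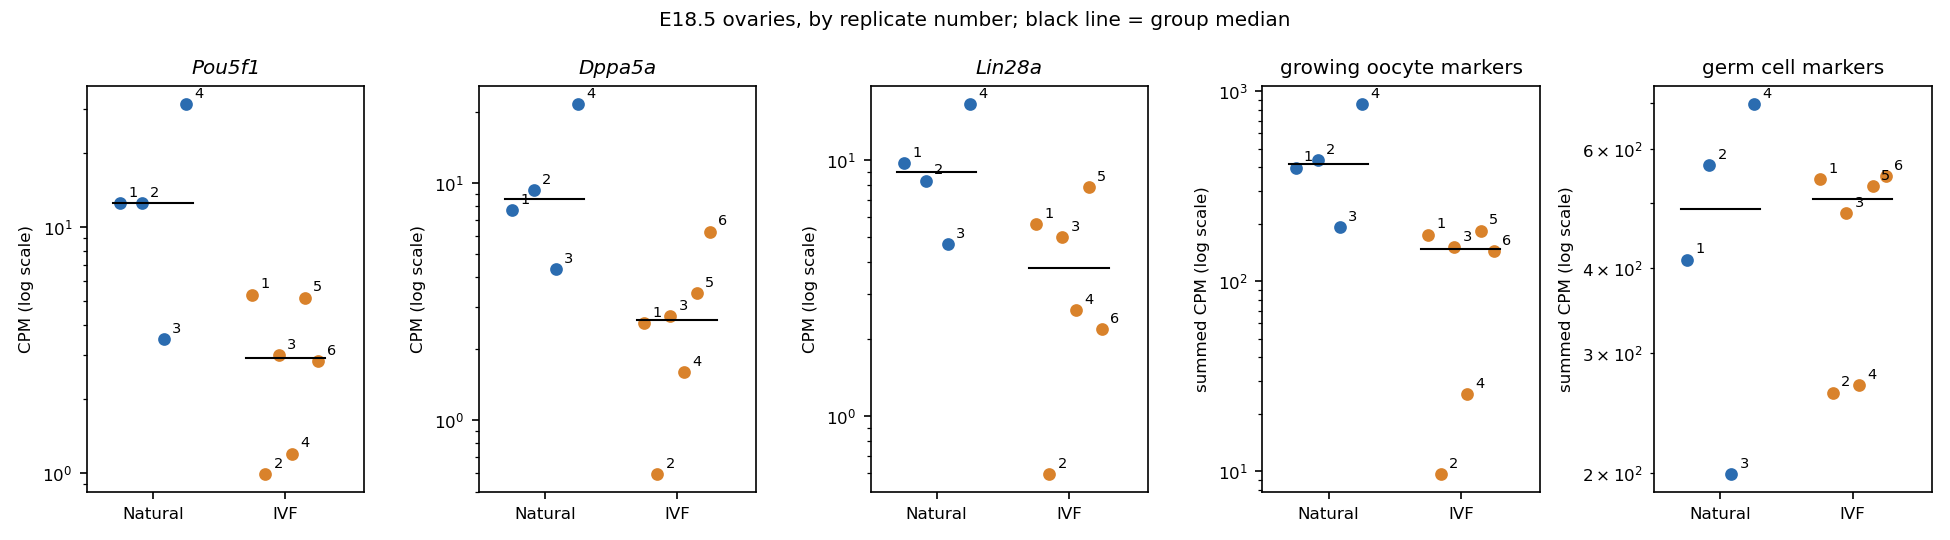
CPM of Pou5f1, Dppa5a and Lin28a in each E18.5 ovary beside the summed CPM of growing oocyte and germ cell markers (log axes), 4 Natural and 6 IVF ovaries with their replicate numbers and a black line at the group median. The growing oocyte markers are separate between the groups and the germ cell markers overlap.

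Other genes of the pluripotency and germ cell programs changed in both directions at E18.5. Of 18 pluripotency genes tested, 1 rose and 2 fell. Lin28b, the relative of Lin28a, rose from 2.43 to 3.91 CPM in Natural to 4.58 to 11.2 CPM in IVF ovaries with no overlap (1.45, adjusted p 0.0151), opposite in sign to the fitted difference of Lin28a. L1td1, an RNA-binding protein of pluripotent cells, fell (1.62 to 4.79 against 0.890 to 2.00 CPM, -1.50, adjusted p 0.0335), as did the transcription factor Klf2 (-0.61, adjusted p 0.0362).

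Of 23 PGC genes tested, Tet2, an enzyme that oxidizes methylcytosine, rose (0.56, adjusted p 0.0250) and Alpl, the alkaline phosphatase long used to stain PGCs, fell (-0.67, adjusted p 0.0354). Of 19 meiotic genes, 2 rose and 0 fell. Sycp2, a component of the synaptonemal complex, was at 8.65 to 17.7 CPM in Natural and 27.8 to 40.2 CPM in IVF ovaries (log2 fold change 1.496, adjusted p 0.00847), and Gm4969 was at 0.96 (adjusted p 0.0370). The medians of the 3 lists were -0.28, -0.10 and -0.03, against 0.00 over all genes.

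In the adult ovary no member rose or fell in IVF; 0.00567% of 17628 genes were called at 12 weeks and 0.262% of 17186 at 39 weeks. At 12 weeks Pou5f1 was at 2.32, 3.14, 1.79 and 4.68 CPM in Natural and at 3.14, 4.14, 8.43, 3.52 and 2.74 CPM in IVF ovaries (0.54, -0.36 to 1.43, adjusted p 0.555). Dppa5a was at 3.15, 5.50, 1.86 and 4.75 CPM against 3.07, 3.93, 9.86, 7.04 and 3.96 CPM (0.49, adjusted p 0.614). The third IVF ovary was the highest for both, and the groups overlapped. Lin28a (-0.29), Prdm1 (-0.13), Tfap2c (-0.59) and Utf1 (-0.22) had fitted values below 0, each with an interval that included 0. In these ovaries 12 oviduct and epithelium markers summed to 3721 to 8563 CPM in Natural and 111 to 3488 CPM in IVF, with no overlap. The part of these markers' tissue in the levels of the members was not tested. At an unadjusted p below 0.05 there were 2544 genes, and DESeq2 called 635, none of them members.

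At 39 weeks Pou5f1 was at 0.719, 2.44, 1.66, 2.24 and 1.35 CPM in Natural and at 1.82, 3.66, 1.38, 3.12 and 1.55 CPM in IVF ovaries (0.47, -0.35 to 1.29, adjusted p 0.503). Dppa5a was at 1.95, 2.72, 0.885, 2.31 and 1.40 CPM against 2.47, 2.76, 1.38, 2.55 and 1.44 CPM (0.22, adjusted p 0.740). The groups overlapped for both genes. Tfap2c had the largest fitted value (1.38, SE 0.95, adjusted p 0.438) through 1 library: the first IVF ovary held 4.45 CPM, and the other 9 ovaries 0.120 to 0.664 CPM. The same ovary held 22 of the Sox2 counts, at 1.18 CPM, and 9529 CPM of 12 oviduct and epithelium markers, where the other IVF and the Natural ovaries held at most 271 CPM. The fifth Natural ovary of this table is labelled 40 weeks. There were 3303 genes at an unadjusted p below 0.05, and DESeq2 called 1135, none of them members.

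Between E18.5 and 12 weeks, the fitted level of Pou5f1 in the ovary fell in Natural and did not pass in IVF. All 29 ovaries were fitted together for these contrasts, and age and table cannot be told apart. The contrasts share the E18.5 and 12-week ovaries with the comparisons above, so they are not independent of them. In Natural, 5 of 7 tested members fell, where 49.7% of 19724 genes were called and 24.3% were lower. Pou5f1 fell by 2.24 on the log2 scale (SE 0.55, adjusted p 0.00151), Lin28a by 2.33 (adjusted p 0.000478), Prdm1 by 2.01 (1.39e-05), Dppa5a by 1.40 (0.0248) and Nanos3 by 1.49 (0.0488). The calls of Pou5f1, Lin28a and Prdm1 remained when any of the 8 ovaries was left out, while that of Dppa5a remained in 5 of 8 refits and that of Nanos3 in 3 of 8. Both were lost without the fourth Natural ovary of E18.5 or without the first or the third of 12 weeks, and Nanos3 also without the second or the third of E18.5 (adjusted p up to 0.197 for Dppa5a and up to 0.145 for Nanos3).

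In IVF, 59.0% of genes were called (30.8% higher, 28.2% lower), and 3 members fell and 1 rose. Prdm1 fell by 1.42 (adjusted p 0.000115), Nanos3 by 1.99 (0.00354) and Lin28a by 1.25 (0.0179). Dppa5a rose by 1.06 (adjusted p 0.0425), and Pou5f1 was at 0.64 (adjusted p 0.244). The call of Dppa5a remained in 5 of 11 refits and was lost without the first, the second, the third or the fourth IVF ovary of E18.5 or the third or the fourth of 12 weeks (adjusted p up to 0.181). That of Lin28a was lost without the fifth IVF ovary of E18.5 (adjusted p 0.0724). The difference between the IVF effects at 12 weeks and at E18.5 was 2.88 for Pou5f1 (SE 0.72, adjusted p 0.0796) and 2.46 for Dppa5a (SE 0.68, adjusted p 0.104); neither passed in edgeR, which called 0.314% of genes, and both passed in DESeq2 (adjusted p 0.00725 and 0.0219). Without the third Natural E18.5 ovary, Pou5f1 passed in edgeR (adjusted p 0.0302).

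Of the growing oocyte markers over these contrasts, 4 of 15 rose and 1 fell in Natural, with a median of 0.55, and 14 rose and 0 fell in IVF, with a median of 3.67. The meiotic list fell in both, with 18 of 19 lower in Natural (median -4.31) and in IVF (-4.73). Smc1b, a meiotic cohesin, went from a mean of 86.1 to 0.839 CPM in Natural and from 128 to 0.925 CPM in IVF. Dppa3, which protects maternal methylation in the zygote, went from 209 to 8.21 CPM in Natural and from 70.8 to 9.93 CPM in IVF. Of 22 pluripotency genes, 3 rose and 6 fell in Natural and 8 and 8 in IVF, and of 28 PGC genes 3 rose and 11 fell in Natural and 4 and 12 in IVF. Nr5a2, a nuclear receptor also made by granulosa cells, rose from 15.7 to 253 CPM in Natural and from 12.8 to 321 CPM in IVF.

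From 12 to 39 weeks no member was called, where 21.6% of genes were called in Natural and 6.19% in IVF. The members nearest to the threshold were Tfap2c in Natural (-1.86, adjusted p 0.112) and Dppa5a in IVF (-1.24, adjusted p 0.113, and 0.0454 in DESeq2). In Natural ovaries the oviduct and epithelium markers summed to 3721 to 8563 CPM at 12 weeks and 73.8 to 271 CPM at 39 weeks. In IVF ovaries they summed to 111 to 3488 CPM and 98.7 to 9529 CPM. Their part in the values of Tfap2c was not tested. No member was called for a difference between the IVF effects at 39 and at 12 weeks, where 2.71% of genes were called; the lowest adjusted p was 0.355, for Tfap2c.

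In cumulus cells none of the 10 members passed the filter on low counts, and 0.00973% of 10280 genes were called. Dppa5a was at 9.36 and 9.97 CPM in the first and second Natural pools and at 8.26 and 7.88 CPM in the fourth and the fifth IVF pools, with 42 to 51 counts each, and had 0 counts in the other 6 pools. These 4 pools carry a different kind of library name from the other 6, and the part of the library set was not tested. Nanog reached at most 2.37 CPM and Prdm1 at most 2.27 CPM. The pools held 1504 to 3189 CPM of granulosa and cumulus markers and at most 79.8 CPM of growing oocyte markers. At an unadjusted p below 0.05 there were 625 genes, and DESeq2 called 31.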

How the data were processed

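RNA-seq was performed on E13.5 PGC pools, single oocytes, cumulus cell pools and ovaries of Natural and IVF females. The authors deposited raw read counts per gene symbol, 1 table a stage. Per the submitters' processing notes, Trimmomatic 0.32, STAR 2.3.0e, featureCounts 1.5.0 and mm10 were used. Ovary libraries were made with a stranded mRNA kit, and the others with a modified SMART-seq protocol on full-length cDNA without molecular identifiers. Counting intervals take each read as a separate count, so they cover neither amplification nor the spread between samples. In each library 55.4% to 79.0% of the counts above 0 were even, as would be seen where both mates of a pair were counted, and counting intervals are then too narrow.

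CPM was computed over the library total. Tests used edgeR 4.0.16 (quasi-likelihood F test, TMM scaling, filterByExpr, Benjamini-Hochberg adjusted p below 0.05, two-sided) in R 4.3.3, with DESeq2 1.42.0 as an alternative, and limma 3.58.1 for 1 refit of oocytes. The 12-week oocytes were summed by donor set, 5 a group, read from library names that the labels do not call donors. Cumulus cells had library set as a covariate, and the first record of some cumulus libraries and the 39-week cumulus libraries were not analysed here. At 39 weeks the library names of the oocytes give no donor set. All samples of a group are separate samples in the labels, but litters are not named, so p-values measure the spread between these samples. Alternatives were other scalings, no filter, each sample left out, and a block on replicate number. The labels do not say whether these numbers pair the samples. Between samples of the same number, a correlation over 0.1 was found for 3 of 4 pairs of PGC pools (at most 0.536) and 0 of 4 of E18.5 ovaries. It was found for 2 of 4 and 3 of 5 of adult ovaries and 1 of 5 of cumulus pools. Shared handling by number was not tested. The fits were tested on simulated data, in which 50.0% to 90.5% of 200 planted genes with a log2 fold change of 2 were found, depending on the table.

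All 10 members are named in every table. Of each list, up to 3 called genes per direction and comparison with the largest fold change could be named, and for 2 members the 5 genes with the most similar pattern, of which 1 is not reported here. Stra8 and Rec8 in single pools, and genes named for the oocytes of low marker level, were chosen after their values were seen. The members and lists were chosen with earlier results of these data known.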

Additional observations from a re-analysis of the deposited data

Results flagged for a closer look

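Single samples stood apart from the rest of their group in 7 of the 78 groups of 4 to 10 samples examined. Their gap to the nearest sample was large against the range of the group. The limit is set to flag about 1 in 20 groups of normally distributed values. CPM need not be so distributed and the genes share libraries, so 7 of 78 cannot be weighed against that rate. At 12 weeks, the third IVF donor set had 335 CPM of Lin28a, with the next set at 153 CPM. This set holds oocytes of low marker level. In 12-week ovaries, the third IVF ovary had 8.43 CPM of Pou5f1, with the next at 4.14 CPM. In 39-week ovaries, the first IVF ovary had 4.45 CPM of Tfap2c, with the next at 0.619 CPM, and it also had 9529 CPM of oviduct and epithelium markers.

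In 39-week oocytes, the ninth Natural oocyte had 51.2 CPM of Dppa5a (next 20.8) and 278 CPM of Lin28a (next 153), and it is 1 of the 2 oocytes of low marker level at that age. The seventh IVF oocyte had 118 CPM of Pou5f1 (next 64.8) and 253 CPM of Lin28a (next 114), with growing oocyte markers in the range of the other IVF oocytes. The part of any of these accompanying values was not tested.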

How the results depend on the processing

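Of the members called in a comparison by the main fit or by an alternative, direction changed under 1 alternative, scaling by library size alone. It changed only between PGCs and oocytes: Pou5f1 went to -0.98 in Natural and -0.76 in IVF, and Tfap2c in IVF to -1.48. Of these, only Pou5f1 in IVF was called in the main fit. Under the replicate block, which rests on numbers that the labels do not describe as pairs, 0 members were called at E18.5 (Pou5f1 -2.38, adjusted p 0.217, and Dppa5a -2.43, adjusted p 0.191). DESeq2 called 1 member for IVF from 12 to 39 weeks and 2 for the difference of IVF effects between 12 weeks and E18.5. Leaving out 1 sample gave 0 to 2 members at E18.5, 3 to 5 for Natural and 3 to 4 for IVF from E18.5 to 12 weeks, and 0 to 1 for that difference of effects (called without the third Natural E18.5 ovary). In 39-week oocytes, 1 member was past 2-fold without the oocytes of low marker level and 0 by median CPM. Dppa5a in IVF from E18.5 to 12 weeks had an adjusted p of 0.051 with DESeq2's size factors in edgeR. For the 71 values never called, 1183 refits gave the other sign in 91 and passed the threshold in none. The cause of these changes was not tested.

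Counts over all genes moved more. At E18.5 there were 891 genes, 1870 with DESeq2, 313 to 1973 without 1 ovary and 3 with the block, and 49.3% of called genes were higher in IVF with TMM against 62.5% with library size alone. DESeq2 called 635 against 1 at 12 weeks and 1135 against 45 at 39 weeks in ovaries, 54 against 4 in oocytes and 31 against 1 in cumulus cells (104 with no filter, 24 with the block). For IVF from 12 to 39 weeks it called 2011 against 1220, and for the differences of effects 322 against 62 (16 with no filter), 1531 against 534 and 43 against 0. Depth limits Nanog, Sox2, Prdm14, Utf1 and Nanos3 outside the PGC pools, where most libraries hold few or no reads of them.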

Other observations

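Genes whose pattern over the 14 group means was among the most like that of Dppa5a, by Pearson correlation of log2(CPM + 1) among 13890 genes, included Gm14139 (r = 0.984), Gm14124 (0.982), LOC108167997 (0.980) and LOC102642386 (0.980). The 5 most like Lin28a were Nelfa (0.991), Dctd (0.990), Siah1b (0.987), Nup62 (0.986) and Xlr3a (0.986). Nelfa, a subunit of the negative elongation factor, had 263 CPM in Natural PGCs and 312 CPM in Natural 12-week oocytes. These correlations are a description: the group means come from 7 tables with different depths and 2 library protocols.

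In the 12-week oocytes of low marker level, Sall4, a zinc finger factor of pluripotent cells, was at 7.14 to 120 CPM, against 331 to 741 CPM in the other oocytes, and Lin28b had a median of 78.5 CPM against 36.8 CPM. Mos, the kinase that holds the mature oocyte in metaphase, was at 1.60 to 20.6 CPM against 520 to 2107 CPM. These genes were chosen after their values were seen.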
